A study of Homo sapiens with 5 samples.

Results

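Dynactin is the large partner complex that cytoplasmic dynein needs to move cargo along microtubules, and the genes described here are its 9 subunit genes DCTN1 to DCTN6, ACTR1A, ACTR1B and ACTR10, together with PALB2, which starts head to head with DCTN5. These 10 genes were found by name among 33857 genes in the table, and all 10 passed the filter on low values that left 19232 genes for testing. DCTN5 and PALB2 were picked because both were already known to be lower in the edited clones in this very comparison, so their values are given as a description without a test. The other 8 genes are included because they belong to the complex, whatever their values, and these were tested. Poly(A)-selected RNA was sequenced from H9, an established human embryonic stem cell line, grown in mTeSR medium with no differentiation treatment in either group, and the study describes its edited cultures as selected on puromycin before single-cell clones were picked. The mock control group holds 2 samples, which GEO labels as control and whose deposited values are headed H9. The study describes its mock controls as 2 clones that received the CRISPR/Cas9 vector without a guide. The labels do not say whether these 2 samples are those clones or unedited H9 cells. The CFIm25-m group holds 3 clones, each from its own guide against CFIm25, which is encoded by NUDT21 and is the small subunit of a cleavage factor that binds pre-mRNA near the poly(A) site. The GEO labels call these clones knockouts, while the series title speaks of knockdown, and the study describes them as clones with reduced CFIm25 that still carry a protein shortened at its N-terminus.

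Dynactin is built around a short filament of the actin-related protein Arp1 (ACTR1A and ACTR1B) with a conventional actin subunit. A shoulder of DCTN1, DCTN2 and DCTN3 sits on the filament and carries the arm that contacts dynein and microtubules, and the pointed end is closed by ACTR10, DCTN4, DCTN5 and DCTN6. DCTN5 and DCTN6 are small related proteins of this pointed end, which takes part in contacts with cargo adaptors. PALB2 is not a dynactin subunit. It bridges BRCA1 and BRCA2 during homologous recombination.

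DCTN5 (ENSG00000166847) lies on the plus strand at chr16:23641392-23677455 and PALB2 (ENSG00000083093) on the minus strand at chr16:23603160-23641310, in the coordinates of hg38 that the table gives. Their annotated starts are 82 bases apart. RefSeq places the PALB2 start at the same base and the DCTN5 start at 23641466, which is 156 bases away. The DNA between the starts in the table (GRCh38.p14, RefSeq promoter window, plus strand, chr16:23641311-23641391, read towards DCTN5) is shown because it belongs to neither gene and lies upstream of both. Capitals mark a CCAAT box, which starts 134 bases before the RefSeq start of DCTN5, and a TGCGCA run, which resembles part of the NRF1 motif and starts 111 bases before it.
PALB2-DCTN5 between starts: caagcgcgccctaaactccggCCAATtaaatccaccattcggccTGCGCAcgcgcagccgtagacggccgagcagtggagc
DCTN5 RefSeq start, chr16:23641457-23641486: ggagcggCCGGAAgtagCCGGAAtctctga
The second stretch crosses the RefSeq start of DCTN5, and its capitals mark both copies of CCGGAA, the core bound by ETS factors.

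The RefSeq promoter window of DCTN5 had a GC content of 66.3% and 28 CpG dinucleotides, against medians of 58.7% and 14 over all 35116 windows. Other members varied, with 69.7% and 29 for ACTR1B, 58.0% and 18 for ACTR1A, and 56.0% and 15 for DCTN3. Motifs were searched on both strands. CCGGAA was present in 17.2% of all windows, CCAAT in 34.6% and TGCGCA in 8.24%. The DCTN5 window held no TATAAA, which 11.5% of windows have, and no GGGCGG, which 45.0% have. Such matches describe the letters only. The study's nuclear run-on primers for DCTN5 lie in this stretch and are shown because they place its nascent RNA amplicon beside the sequence.
dctn5-F1, plus strand, chr16:23641415-23641434: gctgtcgatgagtcccagtg
dctn5-R1, minus strand, chr16:23641494-23641513: tcctgtcagagtcagtcggt
They enclose 99 bases, from 51 bases before to 47 bases after the RefSeq start of DCTN5, and the first base lies 105 bases from the PALB2 start.

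RefSeq windows were matched for 8 of the 10 genes, not for DCTN6 and ACTR10. Of the other members, ACTR1B also has a protein-coding gene head to head with it, C2orf92, which starts 110 bases away. The sequence between their starts (chr2:97664108-97664216, minus strand, read towards ACTR1B) is shown as the closest counterpart to the PALB2-DCTN5 sequence.
C2orf92-ACTR1B between starts: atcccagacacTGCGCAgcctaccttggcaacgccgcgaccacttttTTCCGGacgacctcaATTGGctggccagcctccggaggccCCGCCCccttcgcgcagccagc
Capitals mark the TGCGCA run and, as their reverse complements, the ETS core, the CCAAT box and the GC box (GGGCGG). The same run TGCGCA and a CCAAT match thus stand between the starts of both pairs. GGGCGG and the ETS core stand in the C2orf92-ACTR1B sequence and not in the PALB2-DCTN5 sequence between starts. Over whole windows, TGCGCA was present for 6 and CCAAT for 7 of the 8 genes, beside 8.24% and 34.6% of all windows. The DCTN5 and PALB2 windows overlap, so the same site counts for both genes. The 8 genes had 12 windows, and more windows give a gene more places to match. Outside the pairs, TGCGCA was present for ACTR1A, DCTN1 and DCTN4. CCAAT was present for ACTR1A, DCTN2, DCTN3 and DCTN4, so neither motif is particular to these pairs.

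The libraries held between 18754108 and 23372391 recovered reads. The edited gene NUDT21 gave 6503 and 6398 normalized counts in mock control 1 and 2, and 4035, 3281 and 3400 in CFIm25-m 1, 2 and 3. Its log2 fold change was -0.86 (SE 0.11, adjusted p = 0.00431, limma). Its adjusted p was 0.0618 without mock control 1, 0.0557 without mock control 2 and 0.106 without the mean-variance trend of limma. All 8 stem cell markers were well above the filter, with summed normalized counts of 214447 to 218409 in mock control and 188945 to 202216 in CFIm25-m. Germ layer markers summed to 79.5 to 107 and 80.1 to 99.1, and 4 of these 8 were below 10 in every sample. Of 5 fibroblast markers, COL3A1, LUM and DCN were below 10 in every sample, while COL1A1 stood at 8180 and 8705 in mock control and 5749, 6829 and 6427 in CFIm25-m. PDGFRB lay on the other side, at 503 and 523 in mock control and 569, 889 and 725 in CFIm25-m, and neither gene was called. The mock controls were closer to each other (mean chi-square per gene of 1.77, Pearson's r of 0.991 on log2 values) than any pair of CFIm25-m clones (8.22 to 30.7, r of 0.981 to 0.988). The part of these differences between libraries in the results below was not tested. The p-values measure the spread between these few samples, which the labels number as replicates and the study describes as clones.

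DCTN5 RNA was lower in every CFIm25-m clone than in either mock control. Its normalized count, which is the read count divided by the size factor of the library, was 2024 in mock control 1 and 2031 in mock control 2. It was 1089 in CFIm25-m 1, 883 in CFIm25-m 2 and 975 in CFIm25-m 3, so the groups lay far apart and the mock controls almost coincided. The mock control mean was 2028 ± 5.29 (SD, n = 2), and the mean of the clones was 983 ± 103 (SD, n = 3). The clones thus held 53.7%, 43.6% and 48.1% of the mock control mean, and the log2 fold change was -1.05 (SE 0.11). Behind these values stood 1756 and 2105 recovered reads for the mock controls, and 1087, 981 and 1014 for the clones. In these bulk samples, fewer cells that express a gene and less RNA per cell cannot be told apart.

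PALB2, on the other side of the shared start region, was also lower in every clone. Mock control 1 and 2 gave 655 and 651 normalized counts of PALB2, and CFIm25-m 1, 2 and 3 gave 350, 305 and 281. The groups again lay far apart. The means were 653 ± 2.31 (SD, n = 2) for mock control and 312 ± 35.0 (SD, n = 3) for the clones, with the clones at 53.6%, 46.7% and 43.0% of the mock control mean. The log2 fold change was -1.07 (SE 0.13). Among the 19232 genes tested, PALB2 had the 228th and DCTN5 the 242nd lowest log2 fold change, and for comparison 180 genes (0.936%) were called lower and 181 (0.941%) were called higher over all genes, with a threshold of 0.05 on the adjusted p. These ranks come from the contrast that chose both genes and are given for scale only.

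The order of the clones was not the same for both genes. CFIm25-m 1 was the highest clone for each, but the lowest was CFIm25-m 2 for DCTN5 and CFIm25-m 3 for PALB2. Per kilobase of gene length, DCTN5 stood at 1.15 and 1.16 times PALB2 in mock control 1 and 2. The same ratio was 1.16, 1.08 and 1.29 for CFIm25-m 1, 2 and 3. The ratio of the pair in the clones therefore spanned the mock control values on both sides. A few reads of an antisense transcript, AC008870.4, are annotated over PALB2 and amount to 0.848% of its normalized count. That percentage compares means over all 5 samples, without division by gene length. No listed gene overlaps DCTN5.

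None of the other 8 dynactin subunit genes was called in either direction (0 of 8, limma with Benjamini-Hochberg adjustment over all genes, adjusted p from 0.348 to 0.955), beside 0.936% called lower and 0.941% called higher over all genes. Of the 8, 0 had an unadjusted p below 0.05, which 15.1% of all genes tested had. The number called was also 0 with edgeR and with DESeq2. The median log2 fold change of the 8 was -0.06, against -0.01 over all genes tested, and 6 of the 8 were below 0. In 3 of the 8 the groups did not overlap, a separation that 36.8% of all tested genes showed.

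At the pointed end, no partner of DCTN5 was called. DCTN6, the subunit most closely paired with DCTN5, gave 258 and 255 normalized counts for mock control and 244, 248 and 231 for the clones. All clones lay below the mock controls, but by little, with a log2 fold change of -0.09 (SE 0.13, adjusted p = 0.787, limma). DCTN4, which binds next to them, gave 1286 and 1310 for mock control and 1442, 1483 and 1315 for the clones. Here every clone lay above the mock controls, with a log2 fold change of 0.12 (SE 0.10, adjusted p = 0.583, limma). ACTR10, the actin-related protein that begins this end, gave 763 and 732 for mock control and 814, 648 and 679 for the clones. Its groups overlapped, and the log2 fold change was -0.07 (SE 0.12, adjusted p = 0.810, limma).

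In the shoulder, DCTN1 encodes the largest subunit, which grips microtubules and the dynein intermediate chain. Its normalized counts were 3494 and 3584 for mock control and 3498, 3417 and 3412 for the clones, with a log2 fold change of -0.04 (SE 0.08, adjusted p = 0.858, limma). DCTN2, dynamitin, whose excess takes the complex apart, gave 2016 and 1846 for mock control and 2083, 2012 and 1928 for the clones, with a log2 fold change of 0.06 (SE 0.09, adjusted p = 0.808, limma). The groups overlapped for both genes. DCTN3, the smallest shoulder subunit, gave 337 and 296 for mock control and 349, 303 and 283 for the clones. Its mock controls lay within the range of the clones, and the log2 fold change was -0.02 (SE 0.14, adjusted p = 0.955, limma).

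In the filament, ACTR1A encodes the main form of Arp1 and ACTR1B a close copy of it. ACTR1A gave 2984 and 2908 normalized counts for mock control and 2621, 3004 and 2151 for the clones, with a log2 fold change of -0.20 (SE 0.13, adjusted p = 0.510, limma). The clones differed more from each other here than for any other of the 10 genes, with a coefficient of variation of 16.5% against a median of 13.3% over all genes tested, and CFIm25-m 2 lay above both mock controls. The log2 fold change of ACTR1A was -0.07 without CFIm25-m 3 and -0.31 without CFIm25-m 2, with no call in either case (adjusted p = 0.655 and 0.223, limma). ACTR1B gave 1166 and 1139 for mock control and 981, 1028 and 1003 for the clones. All clones lay below the mock controls and close together, with a log2 fold change of -0.20 (SE 0.09, adjusted p = 0.348, limma). As near copies, the Arp1 genes may share reads that the counting could assign either way. The ratio of ACTR1A to ACTR1B per kilobase was 1.59 for both mock controls and 1.66, 1.82 and 1.33 for the clones.

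Several subunit genes share their position with other genes, and the sources used here do not say whether counting used strand. LEPROTL1, on the same strand as DCTN6, reached 454% of the DCTN6 normalized count, and its log2 fold change was -0.09 (adjusted p = 0.771, limma). This percentage and those below compare means over all 5 samples, without division by gene length. ARMH4, opposite ACTR10, reached 92.6% of its normalized count, and its log2 fold change was 0.21 (adjusted p = 0.458, limma). MBD6, opposite DCTN2, had 22.6% of its level on the same scale, and its log2 fold change was -0.27 (adjusted p = 0.356, limma). MFSD13A, opposite ACTR1A, had 10.9%, and its log2 fold change was 0.06 (adjusted p = 0.890, limma). The values of DCTN6, ACTR10, DCTN2 and ACTR1A are uncertain, since reads from the overlapping stretches could belong to either gene. The percentages compare whole genes. Reads within the overlapping stretches were not counted, so the size of this uncertainty is not known. The genes over DCTN1 were below 1% of its level, and DCTN3, DCTN4, DCTN5 and ACTR1B overlapped no listed gene.

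The order of the subunits by level was read in the mock controls only, as normalized count per kilobase of deposited gene length. ACTR1A was highest at 633, followed by DCTN2 at 458, ACTR1B at 399 and DCTN1 at 339. DCTN4 at 202, ACTR10 at 185 and DCTN5 at 159 formed the middle of the order. PALB2 stood at 138, DCTN6 at 129 and DCTN3, the lowest, at 84.6. The ranges of the 2 mock controls did not overlap for any neighbours in this order, although 2 samples give a narrow view of the spread. DCTN5 was 7th of the 10 genes per kilobase and 3rd without division by length, because its deposited length of 12740 bases is the longest of the set.

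Once divided by gene length, DCTN5 and DCTN6 stood in the reverse order in the clones. Without that division DCTN5 stayed above DCTN6 there, at mean normalized counts of 983 and 241. Per kilobase, the ratio of DCTN5 to DCTN6 was 1.22 and 1.24 for mock control 1 and 2, and 0.697, 0.554 and 0.658 for CFIm25-m 1, 2 and 3. The mean per-kilobase level of DCTN5 was 77.1 in the clones, beside 121 for DCTN6 and 83.3 for DCTN3. Of the summed per-kilobase level of the 9 subunits, DCTN5 made up 6.05% and 6.25% for mock control 1 and 2, and 3.48%, 2.80% and 3.43% for the clones. These figures restate the lower DCTN5 level on the scale of the complex and carry no further test.

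**Figure D1:**
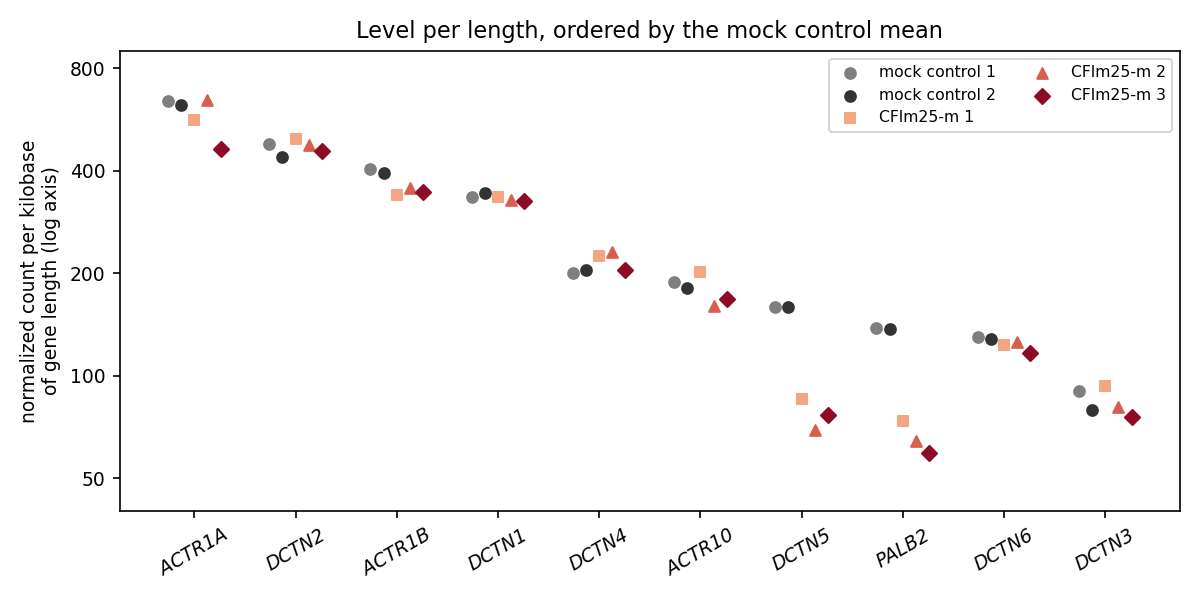
Normalized count per kilobase of gene length for each gene and sample (log axis; genes ordered by the mock control mean; circles, mock control; squares, triangles and diamonds, CFIm25-m 1, 2 and 3). The mean levels of DCTN5 and PALB2 are 159 and 138 for mock control and 77.1 and 65.7 for the clones, where both lie below DCTN6 at 121.

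The question of how often head-to-head genes differ together was put to all pairs of tested genes of opposite strand whose starts lie at most 1000 bases apart. There were 1078 such pairs, and the log2 fold changes of the partners were weakly related (Pearson's r of 0.223, Spearman's rho of 0.143, across pairs, which share libraries and are not independent, so no p-value is given). The median size of the difference between partners was 0.21, and DCTN5 and PALB2, chosen for being lower in this contrast, differed by 0.02, the 57th smallest difference of the 1078. Both partners passed the threshold on the lower side in 2 pairs, of which 1 is PALB2 with DCTN5, where the choice of the genes fixes this, and the other is the lincRNA pair AC008753.3 and AC008753.2. Both were called higher in 1 pair, COL4A6 with COL4A5, which encode basement membrane collagen chains, and no pair had calls in opposite directions. In 23 pairs only 1 partner was called.

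Among the 613 pairs in which both genes are protein-coding, PALB2 and DCTN5 had the lowest mean log2 fold change, at -1.06. The next in that order were the histone genes HIST1H2BJ and HIST1H2AG, at -1.30 and -0.75 but with few reads, and NAP1L3 with FAM133A, at -0.70 and -0.68. PALB2 and DCTN5 were chosen for being low, so this place in the order describes the pair and supports nothing further. Other dynactin genes with a divergent partner had values of opposite sign within the pair. C2orf92, head to head with ACTR1B, gave 86.4 and 59.8 normalized counts for mock control and 129, 108 and 137 for the clones, with a log2 fold change of 0.78 (SE 0.22, adjusted p = 0.133, limma), while ACTR1B had -0.20. The lincRNA AC026979.2, 65 bases from the DCTN6 start, was near the filter, with a log2 fold change of 0.69 (SE 0.76, adjusted p = 0.702, limma).

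The genes on either side of DCTN5 and PALB2 were read as the 20 nearest tested genes, 10 on each side. Of these, 0 were called lower and 0 higher (limma, with 0.936% and 0.941% over all genes), and the count was also 0 with edgeR and with DESeq2. An unadjusted p below 0.05 was found for 3 of the 20, beside 15.1% of all genes. The counts of calls and of unadjusted p below 0.05 are thus near the background. The direction and separation of the 20 were less like it. Their median log2 fold change was -0.11, and 15 of the 20 were below 0, against 51.8% of all genes tested. In 12 of the 20 the groups did not overlap, against 36.8% of all tested genes. The cause of this was not tested. The nearest on the PALB2 side was NDUFAB1, the mitochondrial acyl carrier protein, whose start is 45.0 kb away. It gave 2486 and 2574 normalized counts for mock control and 2228, 2030 and 1724 for the clones, with all clones below the mock controls and a log2 fold change of -0.35 (SE 0.12, adjusted p = 0.186, limma). The nearest on the other side was PLK1, a mitotic kinase whose start is 36.3 kb away. It gave 3718 and 3726 for mock control and 3598, 3457 and 3148 for the clones, with a log2 fold change of -0.13 (SE 0.09, adjusted p = 0.535, limma). The lowest fold change of the 20 belonged to SCNN1B, named after its values were seen, at -1.24 (SE 0.57, adjusted p = 0.342, limma) and with normalized counts near the filter. Without CFIm25-m 3, 1 of the 20 was called, TNRC6A, at -0.35 (adjusted p = 0.0176, limma).

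**Figure D2:**
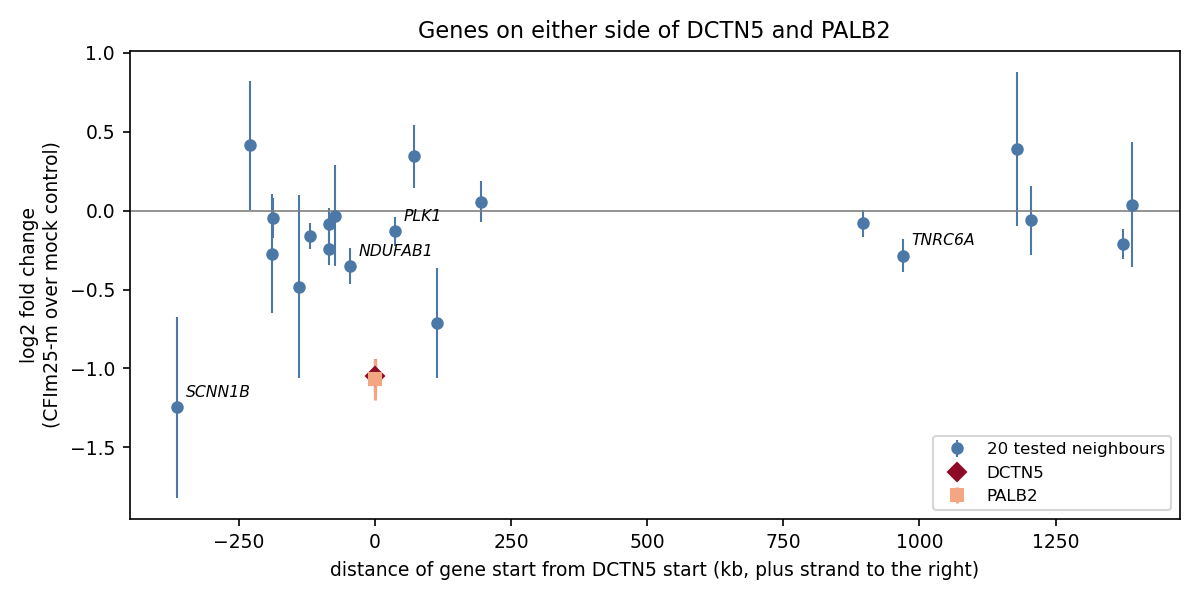
Log2 fold change (CFIm25-m over mock control; bars, SE) of 20 tested neighbours, DCTN5 and PALB2 against the distance of each gene start from the DCTN5 start in kb. DCTN5 (diamond) and PALB2 (square) overlie each other at -1.05 and -1.07, NDUFAB1 stands at -0.35 and PLK1 at -0.13.

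The rest of the dynein pathway was read from a list of 35 genes, of which 34 were tested (DYNLRB2 was not). In this list 1 gene was lower and 0 were higher, that is BICD1, and the median log2 fold change was -0.06. BICD1 encodes an adaptor that links dynein and dynactin to membrane cargo. Its normalized counts were 2697 and 2662 for mock control and 1734, 1391 and 1671 for the clones, with every clone well below the mock controls. The log2 fold change was -0.75 (SE 0.11, adjusted p = 0.00897, limma). The call rests on both mock controls, since the adjusted p was 0.112 without mock control 1 and 0.0972 without mock control 2, at log2 fold changes of -0.74 and -0.76, and it was also lost without the mean-variance trend of limma (adjusted p = 0.128). A single gene of 34 stands beside the 0.936% of all genes called lower.

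By role, 0 of 10 cytoplasmic dynein chains were called, with DYNC1LI1, a light intermediate chain that binds adaptors, at -0.25 (adjusted p = 0.325, limma) and DYNLL2, a light chain, at -0.22 (adjusted p = 0.420, limma). Of 4 dynein regulators 0 were called, with NDE1 at -0.21 (adjusted p = 0.417, limma) and PAFAH1B1, which encodes LIS1, at -0.07 (adjusted p = 0.775, limma). Of 16 adaptors and plus-end partners, 1 was called, BICD1. Of the 4 actin and capping protein genes that complete the filament 0 were called, with CAPZA2 at -0.21 (adjusted p = 0.410, limma) and CAPZA1 at -0.16 (adjusted p = 0.460, limma). Values of genes without a call are given for their size only.

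For PALB2, the comparison list held 18 genes of homologous recombination, all tested. None was called in either direction (0 of 18, limma), beside 0.936% called lower and 0.941% called higher over all genes, a count near the background. An unadjusted p below 0.05 was found for 1 of the 18, against 15.1% of all genes, and 6 of the 18 had a log2 fold change below 0, against 51.8%, with a median of 0.08. RAD52, which anneals single strands, stood at 0.36 (adjusted p = 0.415, limma) and XRCC3, which also acts in strand exchange, at 0.29 (adjusted p = 0.285, limma). These had the greatest fold changes in size of the 18, and both lay on the other side of 0 from PALB2.

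**Figure D3:**
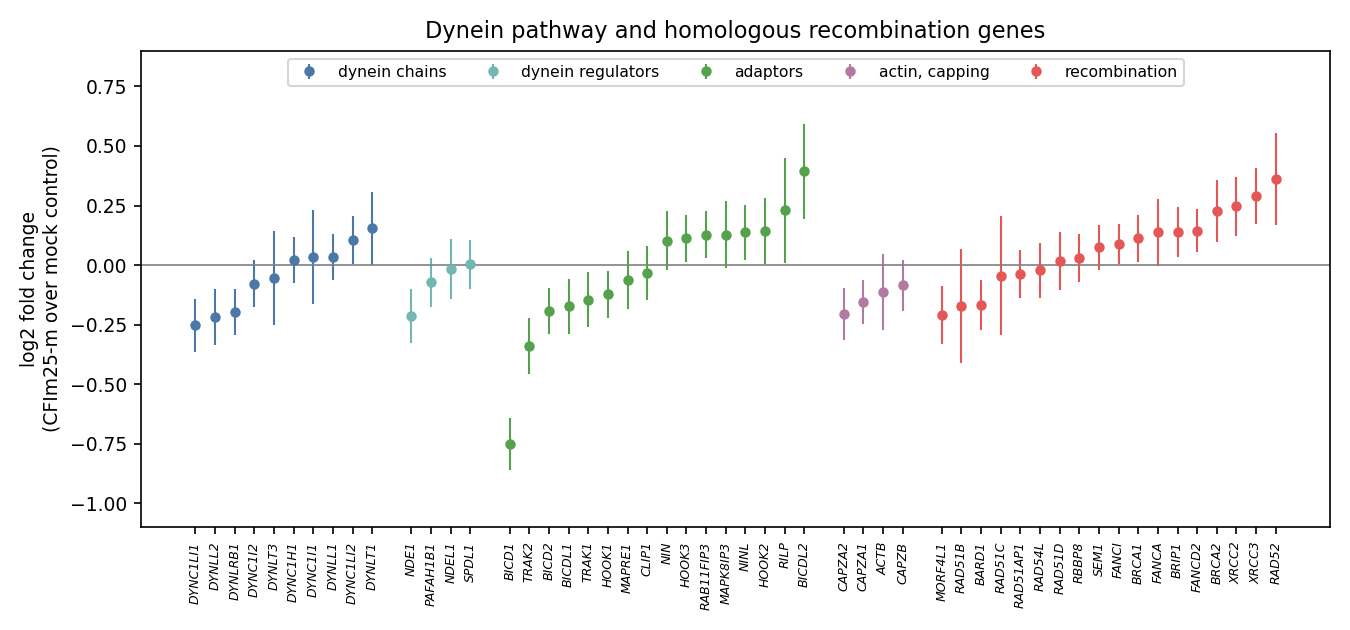
Log2 fold change (CFIm25-m over mock control; points, estimate; bars, SE) of 34 dynein pathway genes, coloured by role, and 18 homologous recombination genes, each group sorted by value. BICD1, at -0.75, is the only gene here with an adjusted p under the threshold of 0.05.

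Genes whose pattern over the 5 samples most resembled DCTN5 and PALB2 were sought among 12329 genes with a mean normalized count of at least 100, by the root mean square difference of log2 values relative to the mock control mean. For DCTN5 the closest was ADRA2A, an adrenergic receptor gene on chromosome 10, with a difference of 0.0817, and PALB2, with 0.0850, was among the 3 closest. For PALB2 the closest was DCTN5, and TP53I11 on chromosome 11, with 0.118, was among the 3 closest. The log2 fold changes of ADRA2A and TP53I11 were -0.97 and -0.97. DCTN5 and PALB2 were both chosen as lower over these same samples, so their nearness to each other is a description.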

How the data were processed

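Poly(A)-selected mRNA of H9 cells was sequenced in 5 samples, grouped from their labels. The authors deposited 1 table with a normalized count per gene and sample, a signal in which the reads of a gene are scaled by 1 size factor per library. The submitters' processing notes name HISAT2, featureCounts, Subread, DESeq2 and hg38. The annotation release and strand setting are not given in the sources used here. The authors' own log2 fold changes, p-values and adjusted p-values were not used. Values were whole multiples of 1 step per library (tolerance 0.01 reads), which gave back whole reads.

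Testing was limited to genes that reached a normalized count of 10 in 2 or more samples and used limma 3.58.1 (R 4.3.3) on log2(normalized count + 1) with a mean-variance trend, and Benjamini-Hochberg adjustment over all 19232 genes at 0.05. Fold changes are on that scale, which understates low genes. With 10 arrangements of 2 against 3 samples, an exact permutation test could not give a p-value below 0.05. edgeR 4.0.16 and DESeq2 1.42.0 were run on the recovered reads as alternatives. These and the main limma fit were tested on simulated data, in which each gene had the same spread in both groups. Other alternatives, which were not tested on simulated data, were scaling, filter, pseudocount, the variance model, a replicate block and leaving out each sample.

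Members and lists were chosen with earlier results of these data known. Named genes were all members, the genes of each list past the threshold or otherwise those with the largest log2 fold change in size, the nearest neighbour on each side, overlapping or divergent genes and the closest patterns. The leading genes of the marker lists, by log2 fold change, were LIN28A (-0.41) and SALL4 (-0.35) for stem cells, SOX1 (-0.99) and MIXL1 (0.34) for germ layers, and PDGFRB (0.48) and COL1A1 (-0.42) for fibroblasts, none of which passed the threshold. A few genes of these lists are not reported here. Sequences came from RefSeq (GRCh38.p14), which matched 8 of 10 members, and the primers from the study's list.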

Additional observations from a re-analysis of the deposited data

How the results depend on the processing

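DCTN5 and PALB2 kept their direction under all 15 alternatives, with log2 fold changes of -1.13 to -0.98 and -1.15 to -0.997, and none of the other 8 subunits passed the threshold under any of them (lowest adjusted p 0.134, ACTR1B, limma). The number of genes called depended strongly on the model and the samples. DESeq2 called 280 lower and 349 higher, and limma without the trend called 25 and 21 and 0 dynein pathway genes. Where 1 mock control was left out, the other was taken to vary like the clones. Leaving out 1 sample gave 33 to 524 lower and 31 to 520 higher, 0 to 2 dynein pathway genes and 0 to 1 near DCTN5. Calls were 524 and 520 without CFIm25-m 3, 90 and 53 without CFIm25-m 1, 117 and 84 without CFIm25-m 2, 35 and 31 without mock control 1, and 33 and 38 without mock control 2. The second dynein pathway gene without CFIm25-m 3 was TRAK2.

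The replicate block called 1064 lower and 1043 higher, 3 dynein pathway genes (BICD1, TRAK2 and DYNLT1) and 4 near DCTN5 (NDUFAB1, TNRC6A, CHP2 and ARHGAP17). The samples share only a number, and no source used here pairs a mock control with a clone. The deviations of same-numbered samples from their group means correlated at 0.00717 and 0.0180. CFIm25-m 3 is alone in its block, so it did not bear on that fit. Values that turned direction were those of DCTN3 (0.043 under the block, -0.12 to 0.067 when 1 sample was left out), DCTN2 (-0.0068 to 0.12 when 1 sample was left out), LEPROTL1 (0.027 under the block, -0.18 to 0.027) and MFSD13A (-0.040 under the block, -0.040 to 0.14). Of the single-gene values, 411 kept direction and side, 13 lost their call, 3 gained one and 8 turned. The 411 include the values of DCTN5 and PALB2, which had no test and were judged by direction only. Within 500 bases 962 divergent pairs remained, and DCTN5 was 3rd by level without length. The cause of these changes was not tested.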
